A study of Mus musculus with 2 samples.

Results

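The nuclear-encoded genes of oxidative phosphorylation (OXPHOS) were taken as every gene whose symbol begins with *Ndufa*, *Ndufb*, *Ndufc*, *Ndufs*, *Ndufv*, *Uqcr*, *Cox4*, *Cox5*, *Cox6*, *Cox7*, *Cox8* or *Atp5*, leaving out pseudogenes named with -ps. The rule found 94 genes under 93 symbols among 54146 genes, since *Atp5o* is annotated under 2 identifiers. They were counted in 2 inDrop single-cell libraries of mouse embryonic stem (ES) cells, a method that captures single cells in droplets and tags each captured transcript with a unique molecular identifier (UMI). The WT library was labelled untreated and the AKO library Lin28a knockout, and the label gave both as ES cells derived from the inner cell mass, grown in LIF/2i medium on gelatin with mouse embryonic fibroblast feeders for 2 days. By the study's methods and a supplementary figure legend the WT cells were a transfected wild-type clone. The AKO cells were a clone in which CRISPR/Cas9 was directed at exon 2 of *Lin28a*, so each genotype was represented by 1 clone and 1 library. Barcodes with at least 500 UMIs and at most 20% of UMIs on mitochondrially encoded (mt-) genes were kept as cells.

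That left 1856 WT cells with a median of 6140 UMIs and 1622 AKO cells with a median of 5063.5 UMIs, in all 11639256 and 9340855 UMIs. With 1 library per genotype no test was possible, and a difference between the libraries by genotype cannot be told apart from 1 by clone or culture. The 95% intervals given after each value (exact Poisson for a level, exact conditional for a ratio, exact binomial for a share) cover counting error only. *Lin28a* itself, which encodes an RNA-binding protein, stood at 106.7 CPM (counts scaled to 1000000 UMIs per library) in WT and 36.6 CPM in AKO, a ratio of 0.343 (0.304 to 0.387). The origin of the *Lin28a* UMIs left in AKO was not tested. All 11 ES cell markers examined were detected in both libraries, with summed levels of 5051 and 5176 CPM. Their single ratios of AKO over WT ran from 0.581 for *Sox2* to 1.245 for *Esrrb*, so the sums do not show an even profile. The 12 fibroblast markers summed to 2408 CPM in WT and 1436 CPM in AKO, and 44 WT and 26 AKO cells were rich in collagen transcripts.

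Oxidative phosphorylation uses 4 electron-transport complexes and an ATP synthase in the inner mitochondrial membrane. Complexes I and II pass electrons to coenzyme Q, complex III passes them to cytochrome c and complex IV reduces oxygen, while complexes I, III and IV pump protons that drive ATP synthase (complex V). Complexes I, III, IV and V are assembled from subunits encoded in the nucleus and others encoded by mitochondrial DNA, so their supply depends on both genomes. The 94 genes held 7 core and 29 accessory subunits of complex I, 8 complex I assembly factors (*Ndufaf1* to *Ndufaf8*), 8 subunits of complex III, 12 subunits of complex IV found in most tissues with 8 genes for other isoforms, and 16 subunits of ATP synthase. *Atp5s*, a factor named for ATP synthase, and 5 copy genes made up the rest. Counted among the 12 for complex IV was *Cox7a2l*, a supercomplex factor. The copies were 4 processed pseudogenes without -ps in their names (*Ndufb4c*, *Ndufs6b*, *Ndufa11b* and *Cox6c2*) and the second *Atp5o* identifier, whose annotated span overlaps the first.

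A case in point for how the genes of a single subunit differed was subunit c of ATP synthase, which forms the rotating ring in the membrane. *Atp5g1*, *Atp5g2* and *Atp5g3* encode precursors that are cut to the same mature protein, and their 3 transcripts did not move alike between the libraries or between cells. Their promoters are shown first, as the 250 bases before and the 50 bases from the annotated start (RefSeq, GRCm38.p6, minus strand, 5′ to 3′). Whether a promoter motif has a part in these differences was not tested. Capitals mark the match to GCGC, any base, then TGCGC, the motif of nuclear respiratory factor 1 (NRF1), a transcription factor known for binding OXPHOS gene promoters.
Atp5g1, chr11:96075582-96075881: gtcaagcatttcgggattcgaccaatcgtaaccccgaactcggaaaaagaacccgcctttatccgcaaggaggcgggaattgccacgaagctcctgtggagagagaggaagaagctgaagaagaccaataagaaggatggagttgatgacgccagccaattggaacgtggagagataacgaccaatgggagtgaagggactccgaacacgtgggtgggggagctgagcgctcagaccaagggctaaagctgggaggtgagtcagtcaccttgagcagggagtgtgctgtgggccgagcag
Atp5g2, chr15:102670998-102671297: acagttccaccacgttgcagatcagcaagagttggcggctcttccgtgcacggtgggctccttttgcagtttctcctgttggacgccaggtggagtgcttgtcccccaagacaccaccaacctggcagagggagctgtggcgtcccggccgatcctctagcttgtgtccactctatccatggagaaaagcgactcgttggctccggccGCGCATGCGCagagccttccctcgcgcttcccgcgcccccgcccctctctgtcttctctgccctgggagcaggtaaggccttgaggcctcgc
Atp5g3, chr2:73911277-73911576: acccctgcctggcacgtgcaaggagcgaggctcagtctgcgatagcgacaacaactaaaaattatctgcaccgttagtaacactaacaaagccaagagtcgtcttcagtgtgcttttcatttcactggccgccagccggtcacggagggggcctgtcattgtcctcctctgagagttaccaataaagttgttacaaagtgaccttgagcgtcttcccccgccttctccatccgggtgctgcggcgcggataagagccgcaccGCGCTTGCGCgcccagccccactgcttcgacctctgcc

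The NRF1 motif had 1 match in the window of *Atp5g2*, 1 in that of *Atp5g3* and 0 in that of *Atp5g1*. The ETS and YY1 motifs given below had 0 matches in each of these windows. Over all the OXPHOS genes that are no copy, 71 of 89 had such a window, and on either strand the NRF1 motif was present in 23.9% of them against 5.19% of 27025 genes. The ETS motif CCGGAAG, which GABPA and related factors bind, was present in 22.5% of the OXPHOS genes against 9.93% of all genes. The YY1 motif AAGATGGC was present in 14.1% against 3.19%. A gene was counted if any of its windows held a match. The set of all genes was not filtered by expression or gene type, so it is not matched to the OXPHOS genes. A match is a run of letters and not a measured binding site, and the shares are given as a description. The transcripts of *Yy1*, *Gabpa* and *Nrf1* differed in level between the libraries. Over 9835 genes, 25.0% were at least 1.2-fold higher in AKO and 25.0% at least 1.2-fold lower. *Nrf1*, *Gabpa* and *Gabpb1* were chosen for naming after their values were seen. *Yy1* stood at 189.0 CPM in WT and 98.4 CPM in AKO, with a ratio of 0.521 (0.481 to 0.562). *Gabpa* was also lower in AKO, at 0.686 (0.619 to 0.759), while *Nrf1* was higher, at 1.40 (1.26 to 1.56). Another regulator, *Gabpb1*, was near even, at 1.06 (0.881 to 1.27).

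In the sum over all 94 genes the libraries were nearly level. They held 172388 UMIs in WT, or 14811 CPM, and 140127 UMIs in AKO, or 15002 CPM, with 95% intervals of 1.47 to 1.49% and 1.49 to 1.51% of all UMIs. The median of single-gene ratios of AKO over WT was 1.014 over the 9835 genes with at least 200 UMIs in both libraries together. Over the 86 OXPHOS genes among them it was 1.035. For the OXPHOS sum the ratio of AKO over WT was 1.013 (1.006 to 1.020). This direction was not stable, since scaling by the median of gene ratios gave 0.978 (0.972 to 0.985), while cells of 5000 to 10000 UMIs gave 1.060 (1.049 to 1.070) and cells with a mt- share of 1 to 2% gave 1.094 (1.081 to 1.107). The median cell held 88 OXPHOS UMIs in WT and 76 in AKO, and 7 WT and 2 AKO cells held none.

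Levels in CPM were compared between genes without dividing by transcript length, because each captured transcript is counted once from its 3′ end. ATP synthase genes held 37.6% of the OXPHOS UMIs in WT and 36.7% in AKO. Complex IV followed with 28.7% and 29.5%, complex I subunits with 23.2% and 23.1%, and complex III with 7.92% and 8.12%. The assembly factors of complex I together held 1.16% and 1.04%. The 10 most abundant of the 94 genes carried 39.6% of the WT OXPHOS UMIs.

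*Atp5a1*, the alpha subunit of the F1 head, was the most abundant of all, at 847 CPM (831 to 864) in WT and 779 CPM (762 to 797) in AKO. Within ATP synthase it was followed in WT by *Atp5l*, subunit g of the membrane part, at 617 CPM against 531 CPM in AKO, and by *Atp5g3* at 558 against 458 CPM. All 3 were lower in AKO, with ratios of 0.920, 0.861 and 0.821. In complex IV the highest were *Cox5a*, at 665 CPM in WT and 605 CPM in AKO, *Cox4i1*, at 614 and 617 CPM, and *Cox8a*, at 549 and 631 CPM. In complex III *Uqcrb* led with 242.5 and 205.5 CPM, before the hinge protein gene *Uqcrh* with 200.3 and 208.0 CPM and *Uqcr11* with 170.5 and 178.2 CPM. Complex I subunits were lower, the highest being *Ndufv2*, an iron-sulfur subunit of the NADH-oxidizing arm, with 180.9 and 152.0 CPM. *Ndufs6* followed with 179.9 and 194.8 CPM and *Ndufb4* with 170.2 and 146.7 CPM. The 36 complex I subunits ranged in WT from 33.3 CPM for *Ndufa1* to that of *Ndufv2*, although each functional complex holds its subunits in fixed proportion.

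**Figure D1:**
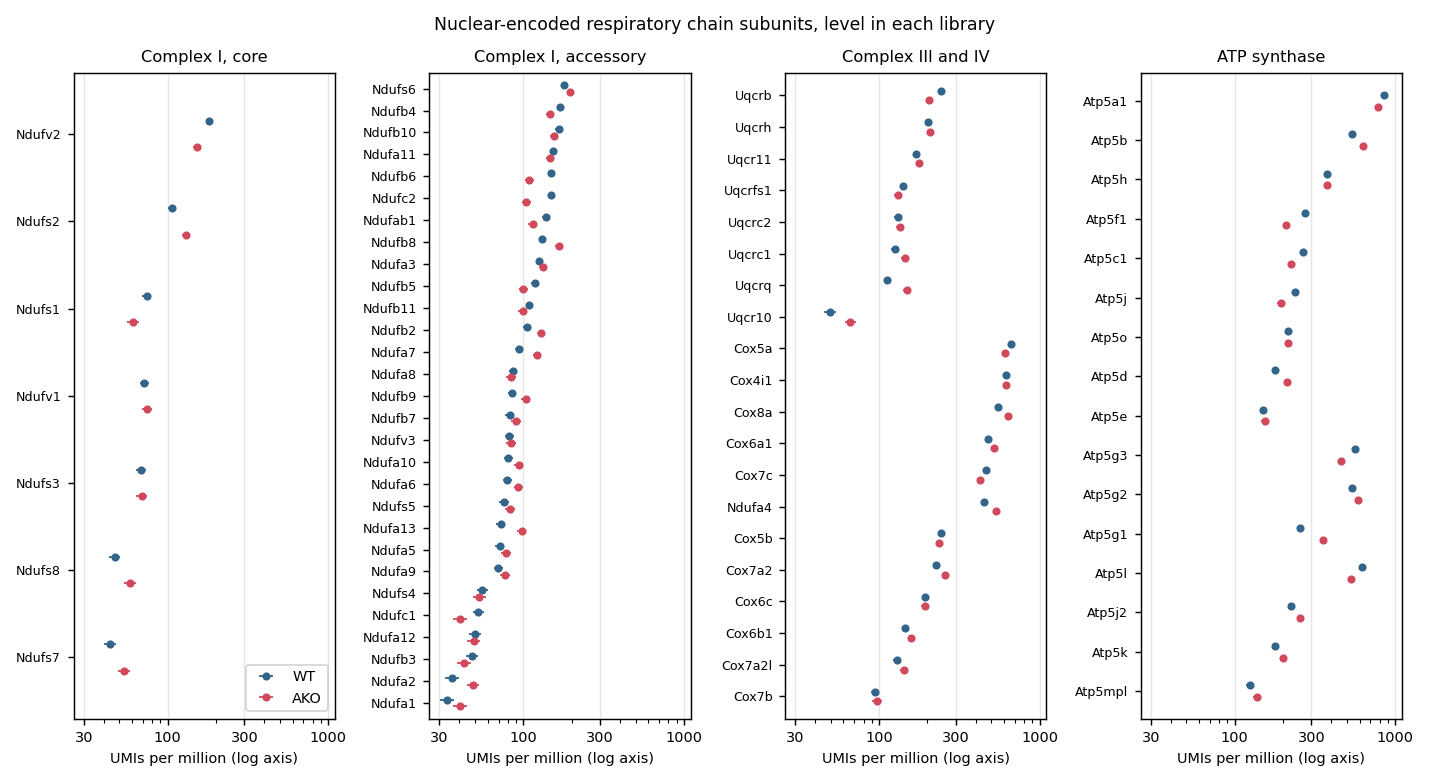
Level of each of the 72 subunits of complexes I, III and IV and of ATP synthase, in CPM on a log axis, in the WT library (blue) and the AKO library (red). Points are library sums and bars are 95% Poisson intervals; complex IV and ATP synthase hold the highest genes, with *Atp5a1* at 847 CPM in WT, and the libraries lie close together for most genes.

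Gene by gene most OXPHOS transcripts were within 1.2-fold between the libraries. Of the 94 genes 86 had at least 200 UMIs in both libraries together and were compared. Of these 16 were at least 1.2-fold higher in AKO, where the share over all 9835 genes was 25.0%, and 13 were at least 1.2-fold lower, where that share was also 25.0%. The other 57 lay between those limits. The split depended on the scaling and the cells, with 11 higher and 19 lower when libraries were scaled by the median of gene ratios, where the shares over all genes were 20.5% and 28.9%. Among cells with a mt- share of 1 to 2% 28 of 76 were higher and 2 lower, where the shares over 6246 genes were 24.0% and 30.5%. At 1.5-fold only the second *Atp5o* identifier was higher, against 6.50% of all genes, and *Ndufaf6* and *Ndufaf4* were lower, against 8.50%. The counting interval of the ratio lay above 1 for 32 genes, below 1 for 24 and included 1 for 30, with a median ratio of 1.035. Over all 9835 genes the interval lay above 1 for 29.9% and below 1 for 29.2%. Cells are not replicates, so these counts describe the precision of the UMI sums and not a test of genotype.

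The complexes differed little in their sums. Complex I subunits gave a ratio of 1.009 (0.995 to 1.024), complex III 1.039 (1.013 to 1.065), complex IV 1.042 (1.028 to 1.055) and ATP synthase 0.989 (0.978 to 1.001). In complex IV 0 of the 12 common subunits passed 1.2-fold. Of these *Cox5a* was the lowest at 0.909 (0.878 to 0.941), and *Ndufa4*, named for complex I but now counted as a complex IV subunit, the highest at 1.199 (1.15 to 1.25). Of the 36 complex I subunits 10 were at least 1.2-fold higher and 5 at least 1.2-fold lower, against 25.0% of all genes in each direction. The assembly factors summed to 172.1 CPM in WT and 156.2 CPM in AKO, a ratio of 0.908 (0.848 to 0.971).

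The genes with the largest ratios came from several complexes. The second *Atp5o* identifier had 169 UMIs in WT and 239 in AKO, a ratio of 1.76 (1.44 to 2.16), but it overlaps the main *Atp5o* gene, which was even at 215.6 and 214.3 CPM, so how reads were divided between them is uncertain. *Ndufaf8*, an assembly factor of complex I, followed with 15.1 and 22.1 CPM, a ratio of 1.46 (1.19 to 1.79). *Atp5g1* was at 256.5 CPM in WT and 351.9 CPM in AKO, a ratio of 1.37 (1.31 to 1.44), which stayed between 1.33 and 1.96 in 14 alternative choices of cells and denominators. The complex I accessory genes *Ndufa13*, whose product is also known as GRIM-19, and *Ndufa2* both gave 1.35 (1.23 to 1.48 and 1.18 to 1.54).

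At the other end were 2 assembly factors and 3 subunits. *Ndufaf6* was at 17.3 CPM in WT and 10.9 CPM in AKO, a ratio of 0.632 (0.493 to 0.806), and *Ndufaf4* at 32.8 and 20.8 CPM, a ratio of 0.633 (0.530 to 0.754). *Ndufc2* and *Ndufb6*, accessory subunits of the membrane arm of complex I, were at 149.2 against 104.5 CPM and 149.3 against 108.8 CPM, with ratios of 0.700 (0.647 to 0.758) and 0.728 (0.674 to 0.787). *Atp5f1*, subunit b of the peripheral stalk that holds the F1 head still, was at 271.8 and 208.9 CPM, a ratio of 0.769 (0.726 to 0.813). Each of these 5 stayed below 1 in all 14 alternatives. The X-linked subunits showed no common direction, with *Ndufa1* at 1.21 (1.05 to 1.40), *Ndufb11* at 0.907 (0.833 to 0.988) and *Cox7b* at 1.03 (0.941 to 1.12).

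**Figure D2:**
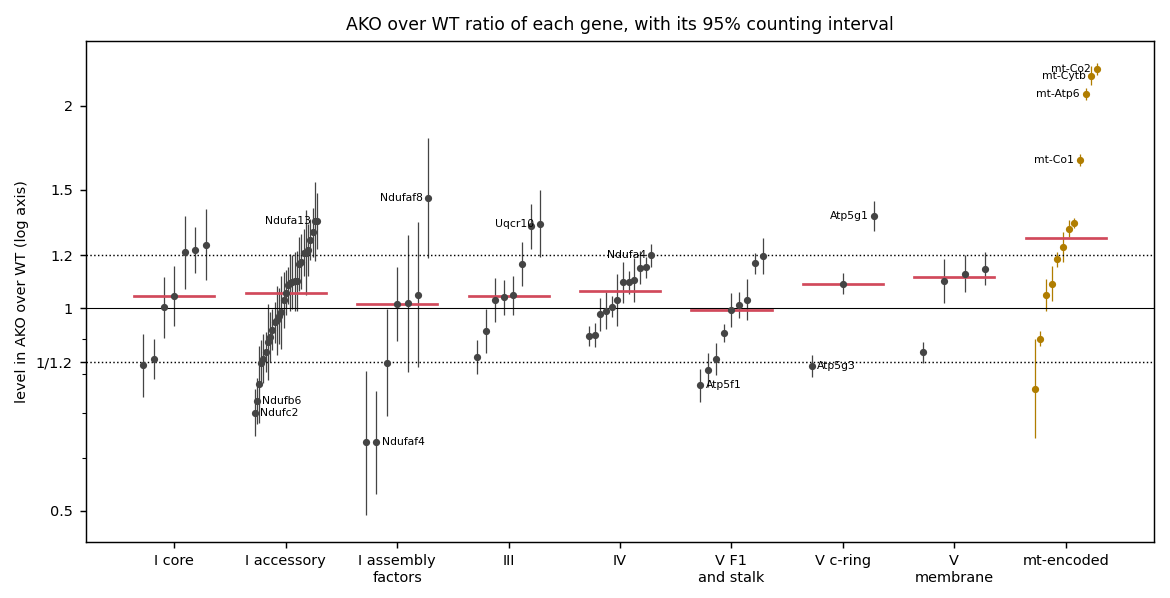
Ratio of AKO over WT for each subunit of the main complexes, complex I assembly factor and mt- gene with at least 200 UMIs, on a log axis, grouped by complex, with 95% counting intervals, the median of each group as a red line and dotted lines at 1.2-fold in either direction. Nuclear OXPHOS genes lie mostly between the dotted lines, whereas *mt-Co2*, *mt-Cytb*, *mt-Atp6* and *mt-Co1* among the mitochondrially encoded genes (yellow) lie above 1.5.

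The 3 subunit c genes were spread across this range. *Atp5g1* was at 1.37 in AKO over WT, *Atp5g2* at 1.09 (1.05 to 1.13) and *Atp5g3* at 0.821 (0.790 to 0.853), while their sum was at 1.032 (1.008 to 1.056). In WT *Atp5g3* supplied 41.2% (40.5 to 42.0%) of subunit c UMIs, *Atp5g2* 39.8% (39.1 to 40.6%) and *Atp5g1* 18.9% (18.3 to 19.6%). In AKO the order was *Atp5g2* with 42.0% (41.2 to 42.9%), *Atp5g3* with 32.8% (32.0 to 33.6%) and *Atp5g1* with 25.2% (24.4 to 25.9%).

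Isoforms known from particular tissues were close to absent, apart from 2. *Cox4i2*, the lung and hypoxia form of subunit 4, and *Cox8b*, a heart and muscle form, had 0 UMIs in both libraries, which allows at most 0.258 CPM in WT and 0.321 CPM in AKO. *Cox8c* had 0 and 1 UMIs, the muscle form *Cox6a2* 7 and 3, *Ndufa4l2* 8 and 13, and *Cox7b2* 6 and 21. The ratio of *Cox7b2* in AKO over WT was 4.36 (1.70 to 13.2) on these few UMIs. The testis form *Cox6b2* had 430 UMIs in WT and 386 in AKO and made up 20.3% (18.6 to 22.0%) and 20.6% (18.8 to 22.5%) of the UMIs of *Cox6b1* and *Cox6b2*. The heart and muscle form *Cox7a1* had 171 and 114 UMIs, or 6.14% (5.28 to 7.09%) and 4.51% (3.73 to 5.39%) beside *Cox7a2*. Both common forms, *Cox6b1* at 145.5 and 159.1 CPM and *Cox7a2* at 224.7 and 258.4 CPM, were far higher, as were *Cox6a1* at 477.5 and 522.3 CPM, *Cox7b* at 94.2 and 97.0 CPM and the supercomplex factor *Cox7a2l* at 129.2 and 142.4 CPM. Muscle marker genes summed to 3.78 CPM in WT and 6.21 CPM in AKO.

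The mitochondrially encoded partners of these subunits were much less even between the libraries. The 13 mt- genes for subunits of complexes I, III, IV and V summed to 10413 CPM in WT and 16112 CPM in AKO, a ratio of 1.547 (1.536 to 1.559), against 1.013 for the nuclear genes. By complex the mt- ratio was 1.156 for complex I, 2.219 for the complex III gene *mt-Cytb*, 1.797 for complex IV and 2.080 for ATP synthase. *mt-Co2* reached 2.27 (2.23 to 2.32), *mt-Atp6* 2.08 (2.04 to 2.12) and *mt-Co1* 1.66 (1.63 to 1.69). The complex I genes *mt-Nd2*, at 0.902 (0.880 to 0.924), and *mt-Nd4l*, at 0.760 (0.641 to 0.899), were instead lower in AKO, and were named after their values were seen. For each UMI of a nuclear complex IV gene there were 0.838 mt- UMIs in WT and 1.45 in AKO. For complex III these values were 0.426 and 0.910, for ATP synthase 0.245 and 0.516 and for complex I 1.45 and 1.66. More AKO cells had a high mt- share, 198 at 5 to 20% against 44 WT cells, and the mt- shares of the libraries were 1.85% and 1.36%.

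Other genes of the pathway were counted from lists of its parts, against 25.0% of all 9835 genes at least 1.2-fold higher in AKO and 25.0% at least 1.2-fold lower. Of 4 complex II genes 1 was at least 1.2-fold higher in AKO and 0 lower. Of 7 genes for cytochrome c, cytochrome c1 and electron entry 1 was higher and 3 were lower. Of 31 other assembly factors compared 3 were higher and 6 lower, the lowest being *Tmem70*, an ATP synthase assembly factor, at 0.596 (0.436 to 0.806). Of 11 regulators of mitochondrial gene expression 3 were higher and 4 lower, of 8 coenzyme Q genes 0 and 1, and of 13 genes of the tricarboxylic acid cycle 3 and 2. *Atpif1*, which encodes the inhibitor of ATP synthase and whose symbol the rule does not take in, had a ratio of 0.868 (0.797 to 0.945).

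Between cells of the same library OXPHOS transcripts varied with the mt- share of the cell, and in the opposite direction. Levels were set against the UMIs left after removal of mt- genes, since mt- genes define the groups. In WT they made up 1.77% of these UMIs in 614 cells with a mt- share under 1%, 1.39% in 802 cells at 1 to 2%, 1.30% in 396 cells at 2 to 5% and 0.546% in 44 cells at 5 to 20%. In AKO they made up 1.82% in 547 cells, 1.53% in 409, 1.35% in 468 and 0.788% in 198. Each of these was above the WT value at the same mt- share, although the sums over all kept cells were nearly level. The intervals of neighbouring groups did not overlap in either library. The order was the same among cells of 500 to 2000, of 2000 to 5000, of 5000 to 10000 and of at least 10000 UMIs. The group at 5 to 20% held under 5 cells in several of them. It was mostly shallow, with at least 5000 UMIs in 1 of its 44 WT and 6 of its 198 AKO cells. With every cell thinned to 500 UMIs, the mean number of OXPHOS genes detected was 7.74 in WT cells under 1% and 2.08 in those at 5 to 20%, where without thinning it was 44.5 and 4.43. In AKO it was 7.86 and 3.19, and 37.3 and 8.45 without thinning.

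**Figure D3:**
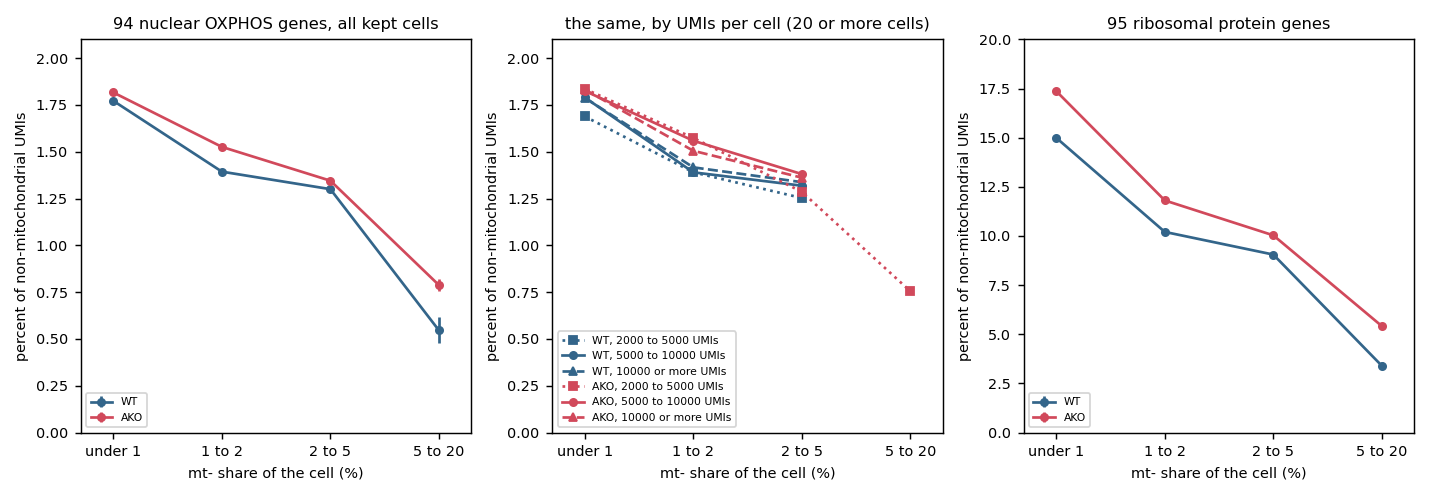
Summed OXPHOS transcripts as percent of non-mitochondrial UMIs by the mt- share of the cell, in all kept cells (left) and by UMIs per cell (middle), and the same for 95 ribosomal protein genes (right), with 95% intervals in the outer panels. Both gene groups are lowest in cells with 5 to 20% of mt- UMIs, in WT (blue) and in AKO (red).

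Ribosomal protein (RP) transcripts moved with them. The median RP share of all UMIs per cell went in WT from 14.2% in cells under 1% to 9.96%, 8.74% and 2.27%, and in AKO from 17.0% to 11.8%, 9.53% and 3.26%. Over WT cells of 5000 to 10000 UMIs the share of OXPHOS had a Pearson correlation of 0.769 with that of RP genes and of -0.581 with the mt- share, over 1042 cells that share 1 library. Among cells with 8 to 12% of UMIs on RP genes the OXPHOS level of cells with at least 2% mt- UMIs (mt-rich) over those under 1% (mt-poor) was 0.934 (0.915 to 0.954) in WT and 0.898 (0.859 to 0.939) in AKO, the last on 28 mt-poor cells. The part of RP level in the contrast was not tested further. Over all kept cells that ratio was 0.726 (0.716 to 0.736) in WT and 0.716 (0.707 to 0.725) in AKO. Cells with under 5% RP were 90 in WT and 222 in AKO, and OXPHOS transcripts made up 0.493% and 0.623% of their non-mitochondrial UMIs. These cells were shallow, with medians of 831.5 and 1214.5 UMIs against 6291 and 6092 in cells with at least 5% RP.

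Over all kept cells most OXPHOS genes were lower in mt-rich cells. In each library 76 genes had at least 200 UMIs in the mt-rich and mt-poor cells together. In WT 57 of them were at least 1.2-fold lower in mt-rich cells, where the share over 5149 genes was 36.5%, and 3 were at least 1.2-fold higher, where that share was 41.8%. In AKO 53 were lower, where the share over 5230 genes was 37.1%, and 7 were higher, where it was 47.4%. Past 1.5-fold 38 genes were lower and 0 higher in WT, where the shares over all genes were 20.4% and 29.5%, and 42 were lower and 2 higher in AKO, where they were 23.9% and 39.1%. Among cells with 8 to 12% RP 8 of 55 genes in WT were at least 1.2-fold lower and 1 higher, where the shares over 2800 genes were 17.4% and 22.6%. In AKO 17 of 56 were lower and 7 higher, where the shares over 2904 genes were 24.6% and 31.5%. Ratios under 1 were found there for 38 of the 55 genes in WT and 39 of the 56 in AKO, with medians of 0.932 and 0.898. The counting interval lay below 1 for 9 of the 55 and 7 of the 56, and above 1 for 1 and 0. The shares of all genes with a ratio under 1, or with an interval below or above 1, were not counted in these cells. These counts therefore say nothing particular to OXPHOS genes. The median of all genes compared over all kept cells was 1.03 in WT and 1.12 in AKO, a shift of 0.17 on the log2 scale in the latter. The median OXPHOS ratios of 0.662 and 0.639 lay further below this set of genes than below 1. In AKO this depended on the set. Scaled by the median ratio of genes with at least 50 UMIs in each group, the summed ratio went from 0.726 to 0.624 in WT but from 0.716 to 0.739 in AKO. By complex the summed ratio in WT was 0.688 for complex I subunits, 0.700 for complex III, 0.727 for complex IV and 0.751 for ATP synthase. In AKO these were 0.647, 0.672, 0.748 and 0.735. The assembly factors of complex I differed, at 0.935 (0.826 to 1.056) in WT and 1.287 (1.133 to 1.464) in AKO.

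The lowest ratios belonged to genes of every complex but complex IV. In WT they were 0.346 (0.260 to 0.456) for *Uqcr10*, 0.365 (0.289 to 0.456) for *Ndufv1*, which binds NADH in complex I, 0.414 (0.370 to 0.463) for *Atp5g1*, 0.432 (0.382 to 0.487) for *Atp5o*, the stalk subunit OSCP, and 0.469 (0.404 to 0.543) for *Atp5e*. In AKO they were 0.380 (0.340 to 0.424) for *Atp5o*, 0.390 (0.358 to 0.425) for *Atp5g1*, 0.392 (0.312 to 0.490) for *Ndufs7*, 0.414 (0.347 to 0.492) for *Ndufv3* and 0.423 (0.371 to 0.481) for *Uqcrq*. *Atp5g1* and *Atp5o* were thus among the 5 lowest of each library. Among cells with 8 to 12% RP the ratio of *Atp5g1* was 0.879 (0.735 to 1.05) in WT and 1.04 (0.728 to 1.55) in AKO.

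A few genes went the other way, and 4 had an interval above 1 in both libraries, while 54 of the 75 genes compared in both had an interval below 1 in both. Over the 4804 genes compared in both libraries these shares were 39.8% and 33.0%. *Atp5f1* was the highest, at 1.48 (1.33 to 1.64) in WT and 2.55 (2.23 to 2.92) in AKO. In WT it went from 202.3 CPM of non-mitochondrial UMIs in cells under 1% to 320.6 at 1 to 2% and 304.6 at 2 to 5%, and in AKO from 104.9 to 251.5 and 280.4. *Atp5f1* was at 0 UMIs in the 44 WT cells at 5 to 20%, where the limit of 3 counts stands at 68.0. In the 198 AKO cells at 5 to 20% it was at 114.9 on the same scale. The others were *Ndufa4* at 1.10 (1.02 to 1.195) and 1.48 (1.37 to 1.60), *Atp5c1*, the gamma subunit of the rotating stalk, at 1.15 (1.04 to 1.27) and 1.33 (1.19 to 1.49), and *Atp5a1* at 1.115 (1.05 to 1.18) and 1.31 (1.24 to 1.39). In cells with 8 to 12% RP the intervals of 3 of the 4 included 1 in both libraries, with *Atp5f1* at 1.10 (0.951 to 1.27) and 0.975 (0.713 to 1.37), and *Ndufa4* was at 0.935 (0.834 to 1.05) and 0.754 (0.621 to 0.922).

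Further genes were among the 5 highest of 1 library. In WT these were *Ndufaf4*, at 1.47 (1.10 to 1.94), *Ndufs1*, the largest iron-sulfur subunit of complex I, at 1.42 (1.18 to 1.71), and *Uqcrb*, at 1.12 (1.01 to 1.25). The values of *Ndufs1* and *Uqcrb* in AKO were 1.05 (0.850 to 1.30) and 1.10 (0.979 to 1.23), and that of *Ndufaf4*, on under 200 UMIs, was 2.90 (1.89 to 4.58). In AKO they were *Ndufaf2*, an assembly factor, at 1.90 (1.48 to 2.45) against 0.854 (0.671 to 1.08) in WT, and *Ndufab1*, the mitochondrial acyl carrier protein, at 1.46 (1.24 to 1.71) against 1.04 (0.901 to 1.21) in WT.

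**Figure D4:**
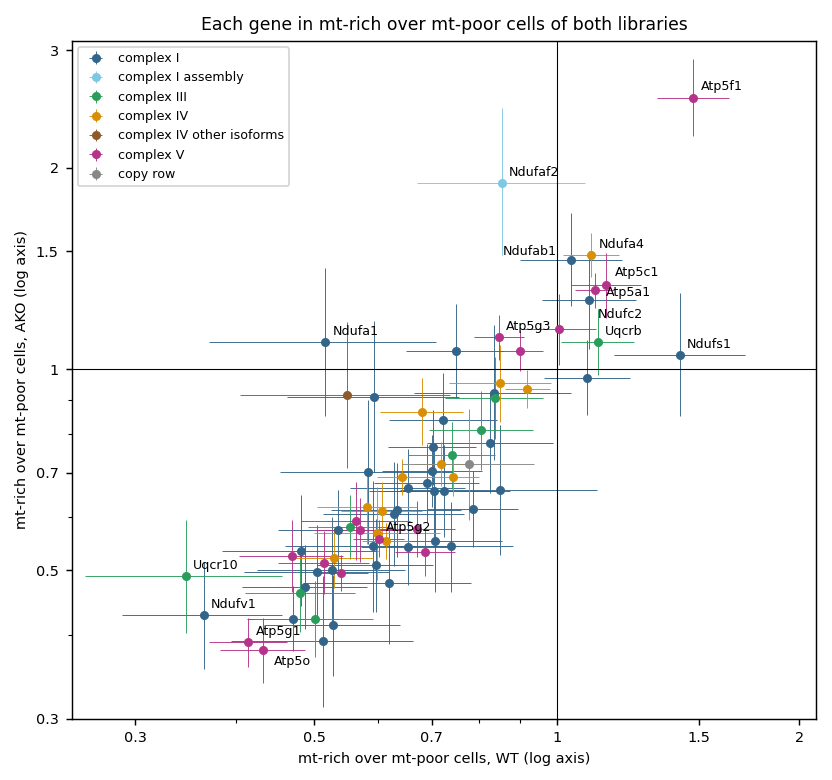
Ratio of mt-rich over mt-poor cells for each OXPHOS gene compared in both libraries, WT on the x axis and AKO on the y axis, both log axes, with 95% counting intervals and colours by complex. Most genes lie below 1 in both libraries, *Atp5g1* and *Atp5o* at the lower left, and *Atp5f1* lies apart at 1.48 and 2.55.

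The subunit c genes also differed along the mt- share. *Atp5g1* in WT went from 410.4 CPM of non-mitochondrial UMIs in cells under 1% to 186.4 at 1 to 2% and 172.4 at 2 to 5%, and in AKO from 589.1 to 291.2 and 234.8. *Atp5g2* went from 717.9 to 469.8 and 435.0 in WT and from 829.3 to 540.6 and 478.0 in AKO. *Atp5g3* went from 597.5 to 568.9 and 513.0 in WT, and in AKO it was lower under 1% than in the next 2 groups, with 401.2, 554.2 and 470.3. In cells at 5 to 20% all 3 genes were at their lowest, *Atp5g1* at 45.3 (5.49 to 164) in WT and 172.4 (127 to 229) in AKO, *Atp5g2* at 249.2 (124 to 446) and 280.1 (221 to 350), and *Atp5g3* at 181.2 (78.2 to 357) and 190.4 (143 to 249). The share of *Atp5g1* among subunit c UMIs was thus 23.8% (22.8 to 24.8%) in WT cells under 1% and 15.4% (14.0 to 16.8%) in those at 2 to 5%, and in AKO 32.4% (31.1 to 33.7%) and 19.8% (18.6 to 21.1%). At 5 to 20% it was 9.52% (1.17 to 30.4%) of 21 subunit c UMIs in WT and 26.8% (20.5 to 33.9%) of 179 in AKO, so in AKO the share did not go down across all groups.

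**Figure D5:**
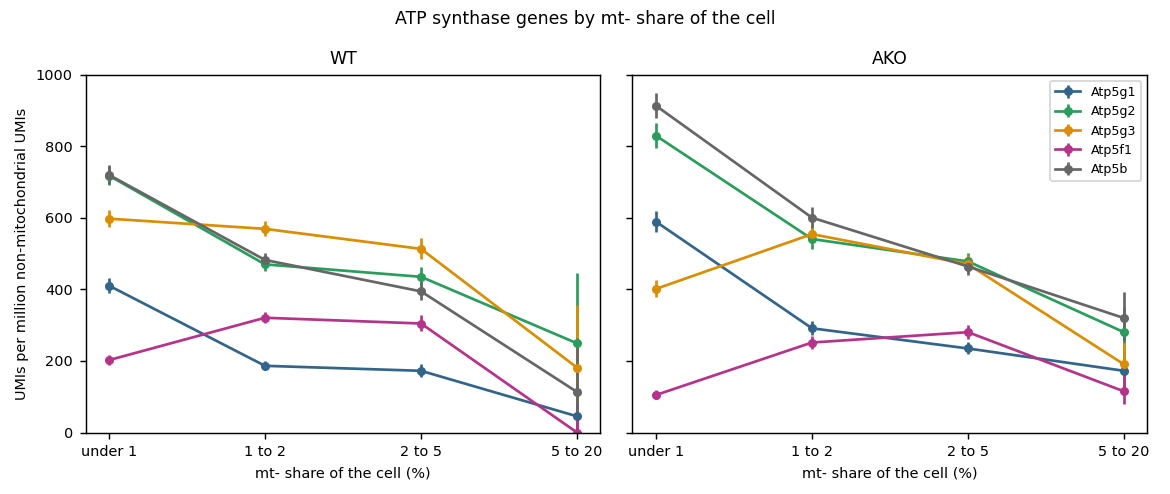
Level of the subunit c genes *Atp5g1*, *Atp5g2* and *Atp5g3*, of *Atp5f1* and of the catalytic beta subunit gene *Atp5b* by the mt- share of the cell, in CPM of non-mitochondrial UMIs with 95% Poisson intervals, in WT (left) and AKO (right). *Atp5g1*, *Atp5g2* and *Atp5b* are highest in cells under 1% of mt- UMIs, *Atp5f1* is lowest there among the first 3 groups, and *Atp5g3* in WT goes from 597.5 to 513.0 over those groups and to 181.2 in cells at 5 to 20%.

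Among single cells of 5000 to 10000 UMIs without high collagen, the OXPHOS share of non-mitochondrial UMIs had an SD of 0.337% in 1023 WT cells and 0.339% in 501 AKO cells, against 0.149% and 0.151% that counting error alone would give. Complex I and ATP synthase shares correlated at 0.525 across the 1042 WT cells of that depth, complex I and complex IV at 0.545, with RP and mt- shares varying beside them. Gene by gene the variance was close to that of counting, with a median of 1.14 times the Poisson variance over 76 genes in WT and 1.19 times over 68 in AKO. Over all genes the medians were much the same, at 1.11 times for 5636 genes in WT and 1.19 times for 3245 in AKO. Many genes had few UMIs per cell, where counting error can hide variation. Of the OXPHOS genes *Ndufa4* was the most variable, at 1.78 and 2.23 times. The pseudogene *Ndufb4c* was at 0.470 and 0.494 times, below counting error. Of 5636 genes in WT 79 were under 0.5 times, 72 of them -ps or Gm rows, and the counts on such copy rows are uncertain.

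The cells rich in collagen transcripts, which are typical of fibroblasts such as the feeders, had a lower OXPHOS share than the other cells, 1.09% against 1.52% in WT and 1.23% against 1.53% in AKO. The ratios of these sums were 0.716 (0.696 to 0.738) and 0.801 (0.763 to 0.841). The median of single-gene ratios over all genes in the same contrast was 0.731 in WT, within the interval of the sum. In AKO it was 0.739, below that interval. By complex the ratio was 0.857 for complex I subunits and 0.619 for ATP synthase in WT, and 0.953 and 0.689 in AKO. Without the collagen-rich cells the AKO over WT ratio of the OXPHOS sum was 1.005 (0.998 to 1.013).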

How the data were processed

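Single-cell transcript counts were made with inDrop in 1 WT and 1 AKO library. The deposited values were raw UMI counts per gene and barcode as the authors made them, with the genome build mm10 and Seurat 2.3.4 named in the submitters' processing notes. Per the methods, reads were processed with a published inDrop pipeline, and the aligner and annotation are not given in the sources used here. Of 54146 gene identifiers 54079 were matched to the GENCODE annotation of GRCm38 without version. Barcode names were serial numbers, so barcodes shared by the libraries could not be counted. The files held 12079546 UMIs in 4329 WT barcodes and 10027710 in 6060 AKO barcodes.

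Barcodes with at least 500 UMIs and at most 20% mt- UMIs were kept. Putative doublets, marked with scanpy 1.11.5 (25 WT and 15 AKO cells), were kept except in an alternative. UMIs were summed over cells and given as CPM of all UMIs, or of non-mitochondrial UMIs for contrasts by mt- share. Exact 95% intervals came from scipy 1.17.1, with numpy 2.4.6, pandas 2.3.3 and Python 3.11.15. Genes with at least 200 UMIs in both groups together were compared, and 1.2-fold and 1.5-fold were the limits for counting. A gene at 0 was given the limit of 3 counts. Collagen-rich cells had at least 3 UMIs and 0.2% of UMIs on collagen genes. In counts of 9734 genes simulated from the WT profile with Poisson error alone, the intervals held the true ratio in 95.6% of genes. There 4.82% of 9534 unchanged genes passed 1.2-fold. The simulation had no variance between cells, clones or libraries. Its coverage therefore follows from the model, and it gives no rate of false calls for these data. Named genes were the 3 most abundant of each complex, the 5 largest and 5 smallest ratios of each contrast, tissue isoforms, X-linked subunits, *Atpif1*, *Lin28a* and pathway genes past 1.5-fold. The genes and lists were chosen with earlier results of these data known.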

Additional observations from a re-analysis of the deposited data

Results flagged for a closer look

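*Atp5g3* was the only gene among the 75 compared in both libraries whose counting intervals lay on opposite sides of 1 in mt-rich over mt-poor cells, at 0.848 (0.790 to 0.910) in WT and 1.12 (1.03 to 1.21) in AKO. With 1 library per genotype the difference was not tested. The share of all genes with intervals on opposite sides was not counted.

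Rows outside the rule also carried signal. *Ndufb1-ps*, annotated as a long noncoding RNA from a bidirectional promoter on chromosome 12, had 1176 UMIs in WT cells and 818 in AKO cells. The processed pseudogene *Atp5l-ps1* had 1666 UMIs in WT cells and 1168 in AKO cells, and its variance between cells was 0.235 and 0.232 times the Poisson variance.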

How the results depend on the processing

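No paired analysis was possible because there was 1 library per genotype, and for the same reason no replicate was left out. The cells of 8 to 12% RP, of 1 to 2% mt- share and of 2 to 5% mt- share as the mt-rich group were chosen after seeing the data. The cause of the shifts was not tested.

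The AKO over WT ratio of the OXPHOS sum, 1.013, had an interval above 1 in 11 of 15 alternatives and one that included 1 in 3 (8 to 12% RP, without collagen-rich cells and no minimum of UMIs), and turned to 0.978 with the median of ratios. It was 1.03 with a denominator without mt- and RP genes, 1.03 without cells under 5% RP, 1.01 without collagen-rich cells, 1.06 in cells of 5000 to 10000 UMIs, 1.07 in cells of 2000 to 5000 UMIs, 1.0003 at 8 to 12% RP and 1.09 at 1 to 2% mt- share. The 29 genes past 1.2-fold of 86 (50% of all genes) became 19 of 80 at 8 to 12% RP (42.3%), 18 of 69 with at least 1000 UMIs per gene (46.2%) and 3 at 1.5-fold (15%). They were 16 higher and 13 lower, against 18 and 8 without mt- and RP genes in the denominator (27.4% and 23.1% of all genes), 23 and 11 of 79 at 5000 to 10000 UMIs (26.3% and 34.0%) and 25 and 12 of 59 at 2000 to 5000 UMIs (29.0% and 36.5%).

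The mt-rich over mt-poor ratio stayed below 1 in all 16 alternatives of each library. In WT and AKO it was 0.711 and 0.696 with the other mt- denominator, 0.678 and 0.655 without mt- and RP genes in the denominator, 0.624 and 0.739 with the median of ratios, 0.741 and 0.749 without cells under 5% RP, 0.737 and 0.753 at 5000 to 10000 UMIs, 0.738 and 0.638 at 2000 to 5000 UMIs, 0.934 and 0.898 at 8 to 12% RP, and 0.700 and 0.642 between the 25% of cells with the highest and the 25% with the lowest mt- share. In AKO it was 0.741 with mt-rich cells of 2 to 5%. The 60 of 76 genes past 1.2-fold in each library became 18 of 21 and 15 of 17 at 2000 to 5000 UMIs (72.6% and 88.9% of all genes) and 24 of 33 and 26 of 32 with at least 1000 UMIs per gene (78.1% and 86.2%), where fewer genes were compared. At 8 to 12% RP they became 9 of 55 and 24 of 56, while the share over all genes went from 78.3% to 40.1% in WT and from 84.5% to 56.2% in AKO. In WT 38 passed 1.5-fold (49.9%).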

Other observations

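Barcodes with fewer than 500 UMIs, which were not kept as cells, carried OXPHOS transcripts at 1.07% of non-mitochondrial UMIs in 2472 WT barcodes and 1.15% in 4423 AKO barcodes. These were 0.714 (0.693 to 0.735) and 0.753 (0.735 to 0.771) times the level in kept cells. The ratio was higher for ATP synthase, at 0.804 and 0.866, than for complex IV, at 0.641 and 0.667. *Ndufa1*, which is X-linked, was at 0.516 (0.371 to 0.708) in mt-rich over mt-poor WT cells and at 1.10 (0.851 to 1.42) in AKO cells, and the difference was not tested.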
